A study of Mus musculus with 40 samples.

Results

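Expression of 44 cell cycle and DNA replication genes was examined in liver and kidney of mice given phenobarbital (PB) and of control mice. The genes were taken by symbol from a list of 45 that spans the replication machinery, the cyclins and their kinases, and the genes of mitosis. Each gene was read from 1 probe set, that of the highest mean across all 40 arrays. Cyclin B1 (Ccnb1) had no probe set in the annotation used here, which left 44 of the 18193 genes with a named probe set. The samples were PB liver, control liver, PB kidney and control kidney of male B6C3F1/Crl mice, a cross of the C57BL/6 and C3H strains, with 10 mice in each of the 4 groups. PB was supplied for 28 days in drinking water at 0.05% (w/v), and both organs of each of the 20 mice were hybridized to Affymetrix Mouse430_2 arrays. The liver is the organ in which prolonged PB treatment gives tumors in this strain, and the kidney served as the organ in which it does not.

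Values are MAS5 signals, a linear intensity that summarizes the probes of a probe set and that the authors scaled to a trimmed mean of 150 on every array. A group mean of 50 is the level below which the study's methods take a transcript as not expressed, and it is used here in the same sense. Liver and kidney identity followed the labels. All 8 named hepatocyte markers reached a mean of 50 in both liver groups, with a summed signal of 96974 to 140752 in PB livers and 99914 to 136552 in control livers. In both kidney groups 5 of them also reached 50, with a summed signal over the 8 of 11831 to 15300 in PB kidneys and 10897 to 18178 in control kidneys. All 8 named kidney tubule markers reached 50 in both kidney groups. Their summed signal in liver was 99.3 to 417 in PB mice and 87.8 to 430 in 9 of the control mice, against 1680 in the liver of control mouse 5. That liver was kept. The tests of PB over control in liver were repeated without it for the members, and calls that changed are named below. The organ comparisons, the interaction and the other gene lists were not repeated without it.

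Cells copy their DNA once per division. Origins of replication are licensed when Cdc6 and Cdt1 load the MCM helicase, geminin (Gmnn) then blocks Cdt1 so that no origin fires again, and Pcna clamps the polymerases to the fork while ribonucleotide reductase (Rrm1, Rrm2), thymidylate synthase (Tyms) and thymidine kinase (Tk1) supply nucleotides. D-type cyclins with Cdk4 or Cdk6 and E-type cyclins with Cdk2 start the cycle by inactivating the retinoblastoma protein, which frees E2F transcription factors. Cyclins A and B with Cdk1 drive mitosis, and Foxm1 turns on many of the mitotic genes. Most hepatocytes and tubule cells of an adult mouse are quiescent, and PB is known as a mitogen of mouse hepatocytes in the first days of treatment.

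Promoters of cell cycle genes often carry E2F sites, a cell cycle homology region (CHR) and CCAAT boxes, so the RefSeq promoters of Mcm7, Rrm2, Tk1 and Nusap1, which were called in a PB comparison, are shown. The promoter of Cdk6, also called, holds none of the motifs searched and is not printed. Each runs 250 bases before to 50 after an annotated start site, on the assembly GRCm38.p6 and in the direction of the gene. RefSeq promoters were matched by symbol for 34 of the 44 members (38 promoters). Capitals mark the searched motifs on either strand: TTTCCCGC, TTTGGCGC, TTTCGCGC or TTTGCCGC for E2F, TTTGAA or TTCGAA for the CHR, and CCAAT. Of 2 Mcm7 promoters, the one printed holds 2 E2F, 1 CHR and 3 CCAAT matches, of which the second E2F match and the last CCAAT match share a base, and the other holds 1 CCAAT match. The Rrm2 promoter holds 1 CCAAT match, and the promoters of Tk1 and Nusap1 hold none of these letters in the window.
Mcm7, chr5:138171834-138172133, minus strand: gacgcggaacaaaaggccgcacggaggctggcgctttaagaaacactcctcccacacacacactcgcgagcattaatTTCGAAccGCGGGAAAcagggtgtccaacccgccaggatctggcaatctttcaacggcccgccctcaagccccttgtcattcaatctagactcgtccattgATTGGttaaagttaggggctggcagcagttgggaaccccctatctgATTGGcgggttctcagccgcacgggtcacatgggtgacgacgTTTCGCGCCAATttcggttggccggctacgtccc
Rrm2, chr12:24708004-24708303, plus strand: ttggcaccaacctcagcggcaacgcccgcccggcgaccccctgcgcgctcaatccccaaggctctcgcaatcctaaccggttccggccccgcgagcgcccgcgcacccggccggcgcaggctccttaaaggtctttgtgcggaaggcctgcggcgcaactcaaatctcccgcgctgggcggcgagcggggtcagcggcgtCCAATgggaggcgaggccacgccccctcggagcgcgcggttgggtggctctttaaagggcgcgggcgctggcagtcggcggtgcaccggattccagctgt
Tk1, chr11:117825965-117826264, minus strand: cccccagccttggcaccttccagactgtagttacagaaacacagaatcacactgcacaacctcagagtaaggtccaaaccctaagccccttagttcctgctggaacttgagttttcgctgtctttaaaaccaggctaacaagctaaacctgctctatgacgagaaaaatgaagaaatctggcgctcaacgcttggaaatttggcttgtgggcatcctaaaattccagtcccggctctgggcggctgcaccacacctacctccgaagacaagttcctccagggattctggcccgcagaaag
Nusap1, chr2:119618048-119618347, plus strand: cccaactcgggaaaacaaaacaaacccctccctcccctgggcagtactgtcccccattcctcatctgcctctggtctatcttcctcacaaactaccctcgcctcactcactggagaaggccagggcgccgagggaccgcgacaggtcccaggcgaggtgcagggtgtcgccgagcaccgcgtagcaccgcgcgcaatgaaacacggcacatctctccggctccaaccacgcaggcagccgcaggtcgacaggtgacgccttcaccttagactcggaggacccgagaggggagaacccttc

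An E2F match was found in 9 of the 38 member promoters (23.7%), against 2.27% of the 32851 promoters in the table. A CHR match was found in 18 of 38 (47.4%), against 19.2% of all promoters. A CCAAT match was found in 27 of 38 (71.1%), against 37.4%. These are matches of letters, and binding was not measured on these arrays.

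The first question was which of these genes were expressed at all. A mean of 50 was reached by 16 of 44 members in PB liver, 18 in control liver, 21 in PB kidney and 22 in control kidney. Over all 18193 genes the share that reached 50 was 53.2% in PB liver, 53.0% in control liver, 54.6% in PB kidney and 54.3% in control kidney. The 16 members above 50 in every group were genes of licensing, of the fork and nucleotide supply and of the start of the cycle: Mcm2, Mcm4, Mcm6, Mcm7, Cdt1, Gmnn, Pcna, Rrm1, Rrm2, Tk1, the D-type cyclins Ccnd1, Ccnd2 and Ccnd3, and the kinases Cdk2, Cdk4 and Cdk6. Another 6 reached 50 in some groups. Mcm5, a helicase subunit, and Cdc20, an activator of the anaphase-promoting complex, did so in all groups except PB liver. Cyclin A2 (Ccna2), the transcription factor Foxm1 and Ect2, which is needed in cytokinesis, did so in both kidney groups. Nusap1, a microtubule-binding spindle protein, did so only in control kidney. No other probe set of Mcm5, Ccna2, Foxm1 or Nusap1 reached 50 in any group.

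The remaining 22 members stayed under 50 in all 4 groups, with group means of 3.22 to 47.4. They were Mcm3, Cdc6, Tyms, the chromatin remodeller Hells, the E-type cyclins Ccne1 and Ccne2, Ccnb2, Cdk1, the kinases Aurka, Aurkb, Bub1, Bub1b and Plk1, Birc5, the ubiquitin-conjugating enzyme Ube2c, Top2a, Mki67, the motor proteins Kif11 and Kif20a, Prc1, Tpx2 and Racgap1. Of the 9 licensing genes, 6 reached 50 in PB liver and 7 in each other group, whereas of the 9 chromosome, spindle and cytokinesis genes none did so in either liver group, 1 in PB kidney and 2 in control kidney. Of the 6 genes of the fork and nucleotide supply 4 reached 50 in every group, and of the 8 D-type and E-type cyclins and kinases 6 did so. Of the 8 mitotic kinase, checkpoint and anaphase genes only Cdc20 ever reached 50. Means close to the limit were 51.4 for Tk1 and 51.6 for Ccna2 in PB kidney and 52.1 for Nusap1 in control kidney on one side, and 49.1 for Mcm5 in PB liver and 47.4 for Cdk1 in control liver on the other.

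**Figure D1:**
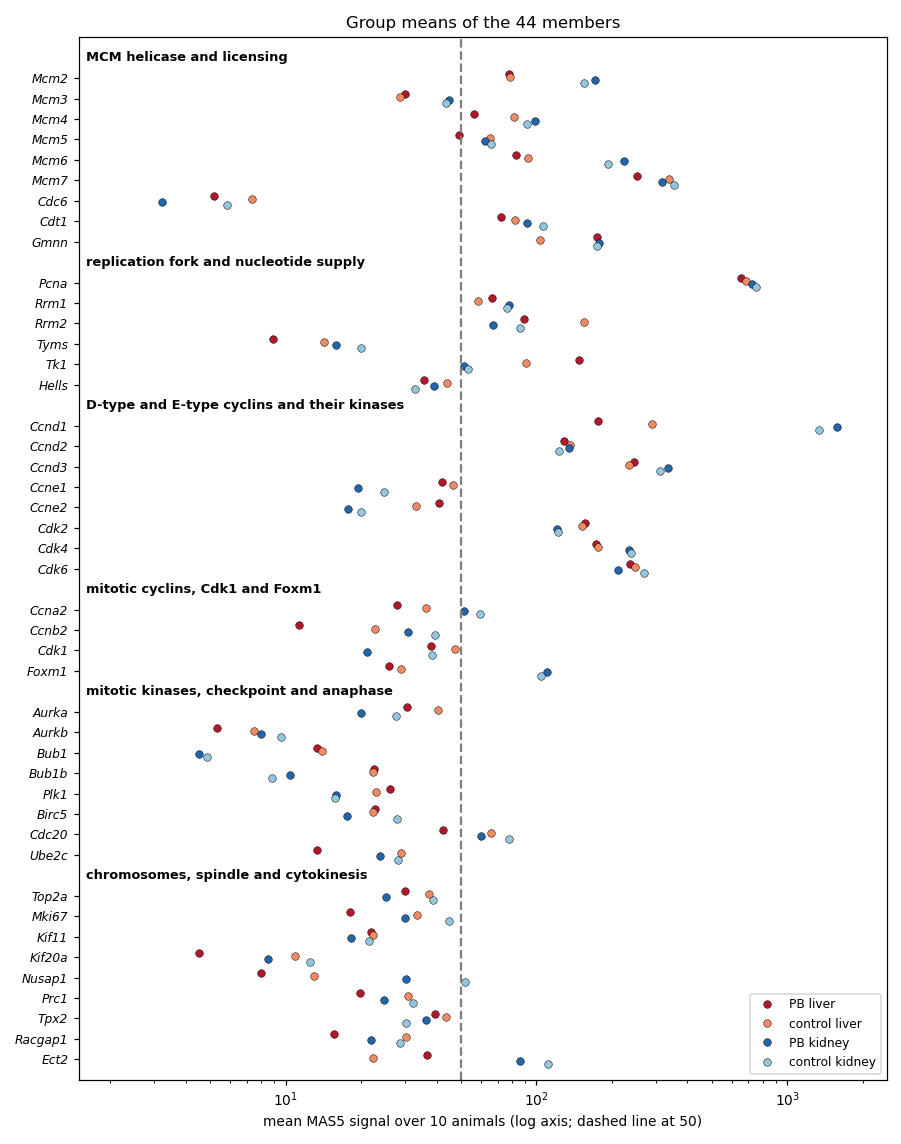
Mean MAS5 signal over 10 animals (horizontal log axis) of each of the 44 members, grouped by role, in PB liver, control liver, PB kidney and control kidney; the dashed line stands at 50. Of the members, 16, among them the D-type cyclins Ccnd1, Ccnd2 and Ccnd3, lie to the right of the line in every group, and 22 members, most of them mitotic, lie to its left in all 4 groups.

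In liver, geminin and thymidine kinase were higher in PB mice, and a pair of MCM subunits, the small subunit of ribonucleotide reductase and cyclin D1 were lower. The limma test covered the 18 members with a mean of at least 50 in PB or control liver. At a Benjamini-Hochberg adjusted p under 0.05 over all 9920 genes tested, 2 members were higher and 4 were lower. Over all genes, 6.94% were called higher and 8.70% lower. The median log2 difference was -0.07 over the 18 members and -0.02 over all genes tested. Fewer cells of a type and less RNA per cell cannot be told apart in these tissue samples, and this holds for every difference below.

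Among the licensing genes, Gmnn (1417506_at), the inhibitor of relicensing, had a lowest, median and highest signal of 134, 171 and 236 in PB livers, against 51.8, 101 and 168 in control livers. The groups overlapped, but 6 PB livers were above every control liver and 8 control livers were below every PB liver. The means were 174 ± 29.2 in PB livers and 103 ± 34.2 in control livers (SD, n = 10 each), a ratio of 1.68 and a log2 difference of 0.81 ± 0.16 (SE, adjusted p = 0.00133, limma). Gmnn has a single probe set here.

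Mcm7 (1438320_s_at), a subunit of the helicase ring, had a lowest, median and highest signal of 208, 249 and 288 in PB livers, against 278, 342 and 390 in control livers. All but 1 of the PB livers lay below the lowest control liver. The mean was 252 ± 22.3 in PB livers and 339 ± 33.4 in control livers, and the log2 difference was -0.43 ± 0.07 (adjusted p = 7.37e-05, limma). The other 3 probe sets of Mcm7 gave log2 differences of -0.40, -0.39 and -0.33. All 4 are of the kinds that can also detect related transcripts.

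Mcm4 (1436708_x_at), another subunit of that ring, had 23.2, 56.4 and 87.2 in PB livers, against 61.9, 79.4 and 105 in control livers. The groups overlapped, and 5 of 10 PB livers were below every control liver. The log2 difference was -0.60 ± 0.18 (adjusted p = 0.0260, limma). The call rests on a probe set that can detect related transcripts, since with the gene's other probe set the log2 difference was -0.27 (adjusted p = 0.182).

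The other licensing genes tested did not pass. Mcm2 averaged 77.4 ± 18.6 in PB livers and 78.4 ± 19.2 in control livers, a log2 difference of -0.01 ± 0.15. Mcm6 averaged 82.6 ± 19.9 in PB livers and 92.4 ± 31.5 in control livers, and Cdt1 averaged 72.2 ± 10.1 in PB livers and 82.2 ± 23.6 in control livers. Mcm5 averaged 49.1 in PB livers and 65.2 in control livers, so that it entered the test through its control mean alone. Its log2 difference of -0.66 ± 0.38 was not called (adjusted p = 0.263, limma).

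Among the genes of the fork and nucleotide supply, the salvage enzyme Tk1 and the reductase subunit Rrm2 were called in opposite directions. Tk1 (1416258_at) had a lowest, median and highest signal of 113, 139 and 206 in PB livers, against 16.6, 94.5 and 152 in control livers. The lowest value, 16.6, was that of control mouse 2, and 7 control livers were below every PB liver. The mean was 148 ± 34.1 in PB livers and 90.9 ± 39.7 in control livers, and the log2 difference was 0.87 ± 0.28 (adjusted p = 0.0351, limma). The call was close to the threshold: it was kept in 12 of 20 fits with 1 liver left out, with adjusted p between 0.0163 and 0.0621, and it was lost without the filter at 50 (adjusted p = 0.0544). The livers whose removal ended the call were those of PB mice 13, 15, 18, 19 and 20 and of control mice 4, 5 and 10, and without control mouse 5 the adjusted p was 0.0511.

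Rrm2 (1434437_x_at), whose product limits the supply of deoxynucleotides, had 59.2, 85.9 and 125 in PB livers, against 120, 140 and 296 in control livers. All but 1 of the PB livers lay below the lowest control liver. The highest value, 296, was that of control mouse 2, and the next was 166. The mean was 89.3 ± 22.6 in PB livers and 155 ± 50.7 in control livers, a ratio of 1.74, and the log2 difference was -0.79 ± 0.15 (adjusted p = 9.26e-04, limma). Without control mouse 2 the adjusted p was 6.14e-04. The other probe sets gave -0.75 and -1.24. Pcna, the sliding clamp, averaged 652 ± 59.5 in PB livers and 682 ± 31.4 in control livers (log2 difference -0.07 ± 0.05, adjusted p = 0.402, limma). Rrm1, the large reductase subunit, averaged 66.7 ± 18.5 in PB livers and 58.3 ± 10.6 in control livers (adjusted p = 0.470, limma).

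Of the cyclins and kinases of the start of the cycle, only Ccnd1 was called. Ccnd1 (1417420_at), a cyclin that mitogens induce, had 120, 163 and 290 in PB livers, against 175, 272 and 472 in control livers. The groups overlapped, with 6 PB livers below every control liver. The mean was 176 ± 52.3 in PB livers and 288 ± 85.2 in control livers, and the log2 difference was -0.71 ± 0.17 (adjusted p = 0.00487, limma). The gene's other 2 probe sets gave -0.69 and -0.46. Ccnd2 averaged 129 ± 16.0 in PB livers and 136 ± 14.9 in control livers, and Ccnd3 averaged 245 ± 31.0 in PB livers and 234 ± 53.1 in control livers. Cdk2 averaged 156 ± 23.0 in PB livers and 152 ± 18.5 in control livers. Cdk4 averaged 172 ± 29.8 in PB livers and 175 ± 30.6 in control livers, and Cdk6 averaged 236 ± 35.0 in PB livers and 247 ± 86.5 in control livers. For these 5 genes the log2 differences lay between -0.08 and 0.09, with standard errors of 0.09 to 0.13.

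Cdc20 was the only mitotic member tested in liver. Its lowest, median and highest signals were 15.3, 44.3 and 57.6 in PB livers, against 30.1, 53.2 and 105 in control livers. The log2 difference of -0.62 ± 0.25 did not pass (adjusted p = 0.0976, limma), and without the liver of control mouse 5, which had the lowest control value, it did (adjusted p = 0.0403). Cdc20 entered the test through its control mean alone (65.8, against 42.3 in PB livers). Its probe set (1439377_x_at) can detect related transcripts. The gene's other probe sets, under 50 in both liver groups, gave -0.17 and 0.34. No member had every PB liver on one side of every control liver. Over all genes tested this was so for 1.33% (PB above control) and 0.433% (PB below control).

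**Figure D2:**
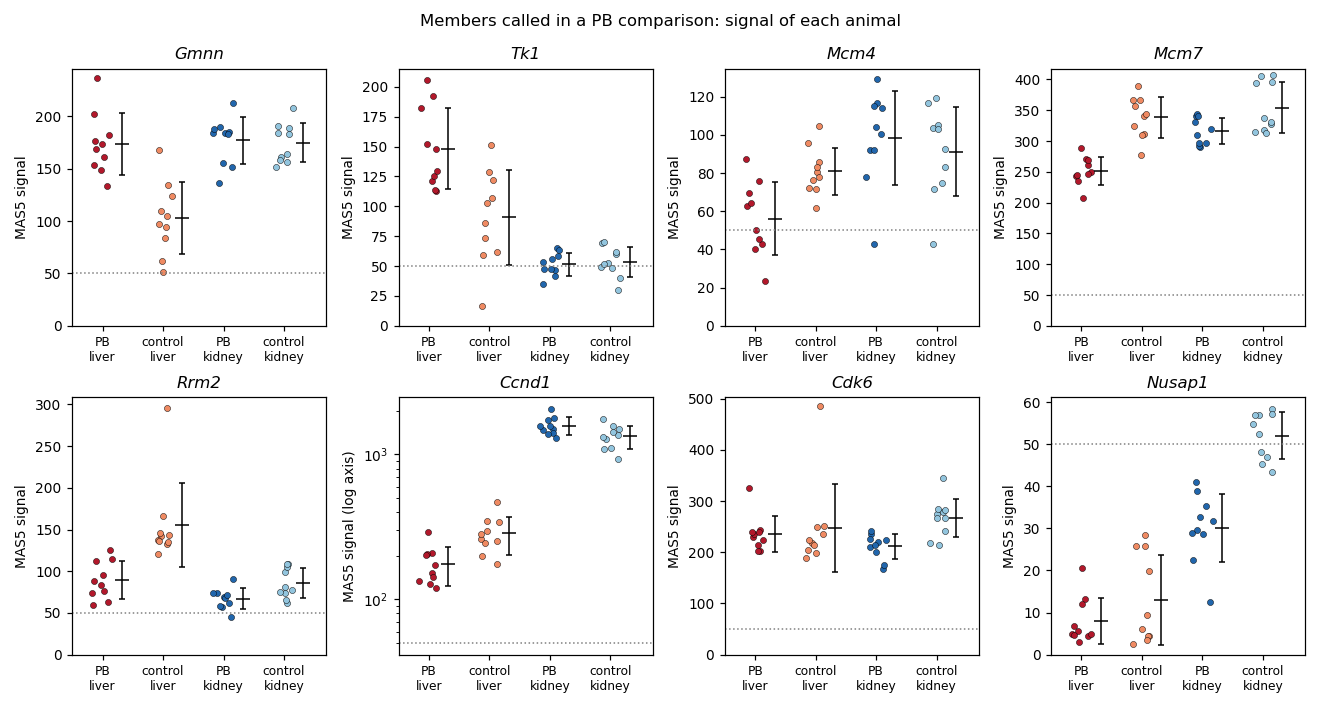
MAS5 signal of each animal (points; vertical axes start at 0 except the log axis of Ccnd1) in PB liver, control liver, PB kidney and control kidney for the 8 members called in a PB comparison, with the mean and SD beside the points and a dotted line at 50. In liver Gmnn and Tk1 lie higher in PB mice and Mcm4, Mcm7, Rrm2 and Ccnd1 lower, with overlap of 1 or more animals in each, and in kidney the 10 PB values of Nusap1 lie below the 10 control values.

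Members too low for the filter were compared without it, over all 18193 genes. In liver the same fit without a filter called 1 member higher (Gmnn) and 4 lower (Mcm4, Mcm7, Rrm2 and Ccnd1), against 3.34% and 3.72% of all genes. None of the 22 members under 50 in all groups was called (limma, lowest adjusted p = 0.0685), and at an unadjusted p under 0.05 none was higher and 5 were lower: Mki67, Ube2c, Racgap1, Kif20a and Prc1. The share of all genes past an unadjusted p of 0.05 was not counted, here or for the unadjusted counts below. These counts therefore cannot be set against a background. Outside those 22, Ect2 was also under 50 in both liver groups. It averaged 36.7 in PB livers and 22.2 in control livers, a log2 difference of 0.98 that was not called. Ccna2, Foxm1 and Nusap1, also that low in liver, had log2 differences of -0.46, -0.28 and -0.44, none called. Mki67, the antigen of cycling cells known as Ki-67, had 5.7, 16.0 and 30.0 in PB livers, against 13.8, 33.6 and 58.8 in control livers, both below the level of expression. Of the 26 members whose mean over the 20 livers was under 50, 20 had a lower log2 mean in PB livers (76.9%), against 48.3% of all 8522 genes that low. Signals this low are near background, and a difference between them is not a fold change in expression.

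Some markers of other cell types differed between PB and control livers as well. Of 8 tested stellate cell and fibroblast markers 4 were lower (Lrat, Dcn, Des and Pdgfrb; without a filter only Lrat and Dcn), with a summed signal over the 9 named markers of 2609 to 3596 in PB livers and 3154 to 3922 in control livers. Of 11 macrophage markers 2 were lower (C1qa and Cd163, neither of them without a filter, with adjusted p of 0.0564 for C1qa and 0.0669 for Cd163), with a sum of 2881 to 6258 in PB livers and 3888 to 6151 in control livers. Of 7 endothelial markers 1 was lower (Stab2), with a sum of 1144 to 1453 in PB livers and 1131 to 1541 in control livers. Of 3 erythroid markers the transferrin receptor Tfrc was higher, with a sum over 6 named markers of 2189 to 2567 in PB livers and 1257 to 2186 in control livers. Of 10 named lymphocyte markers 2 reached 50 in liver, and neither was called (limma, lowest adjusted p = 0.422, none at an unadjusted p under 0.05). The 10 summed to 227 to 384 in PB livers and 222 to 554 in control livers, and no bile duct marker reached 50 in liver. In kidney, 1 of 8 stellate cell and fibroblast markers was called (Rgs5, higher) and none of the other markers. The part of these cell types in the differences of the cell cycle genes was not tested.

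In kidney, 2 of the 22 members tested were lower in PB mice and none was higher at an adjusted p under 0.05 (limma). Of all 10048 genes tested, 2.56% were called higher and 1.90% lower. At an unadjusted p under 0.05, 2 members were higher (Mcm6 and Ccnd1) and 6 lower, a count without the share of all genes beside it. The t-test of the methods called none higher on either scale. The called members were the spindle protein Nusap1 and the kinase Cdk6. The median log2 difference was -0.03 over the 22 members and 0.01 over all genes tested.

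Nusap1 (1416309_at) had a lowest, median and highest signal of 12.6, 30.6 and 40.9 in PB kidneys, against 43.5, 53.7 and 58.3 in control kidneys. Every PB kidney was below every control kidney, which was so for 0.0796% of all genes tested, while 0.159% had every PB kidney above. The mean was 30.2 ± 8.1 in PB kidneys, under 50, and 52.1 ± 5.6 in control kidneys, so that the ratio of control to PB is at least 1.04. The log2 difference was -0.84 ± 0.16 (adjusted p = 0.00374, limma). Nusap1 entered the test through its control group alone, and without a filter it was still called (adjusted p = 0.00827), as were 0.731% of all genes on the lower side and 0.940% on the higher side. Its other probe set, with means of 8.6 in PB kidneys and 9.8 in control kidneys, was too low to compare. The call was lost with signals floored at 50 (log2 difference -0.10, adjusted p = 0.288) and when all 40 arrays shared 1 fit (adjusted p = 0.358).

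Cdk6 (1435338_at), a partner of the D-type cyclins, had 167, 217 and 242 in PB kidneys, against 215, 271 and 346 in control kidneys. The groups overlapped, with 8 control kidneys above every PB kidney. The mean was 211 ± 24.3 in PB kidneys and 267 ± 37.5 in control kidneys, a ratio of 1.26, and the log2 difference was -0.33 ± 0.08 (adjusted p = 0.0180, limma). A second probe set of the gene gave -0.32. The call was lost with all 40 arrays fitted together (adjusted p = 0.136) and with the mean over the gene's probe sets (adjusted p = 0.230).

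The other kidney members did not pass the test. Ect2 averaged 86.4 ± 18.9 in PB kidneys and 111 ± 29.2 in control kidneys (adjusted p = 0.188, limma), and Foxm1 averaged 110 ± 24.0 in PB kidneys and 105 ± 23.7 in control kidneys. Mcm6 averaged 224 ± 15.0 in PB kidneys and 193 ± 30.3 in control kidneys (log2 difference 0.23 ± 0.08, adjusted p = 0.0929, limma), and was called without control mouse 4 (adjusted p = 0.0398). Ccnd1 averaged 1578 ± 224 in PB kidneys and 1334 ± 245 in control kidneys (adjusted p = 0.141, limma). Gmnn averaged 177 ± 22.5 in PB kidneys and 175 ± 18.7 in control kidneys, and Tk1 averaged 51.4 ± 9.6 in PB kidneys and 53.3 ± 12.8 in control kidneys. Rrm2 averaged 67.0 ± 12.5 in PB kidneys and 85.8 ± 18.1 in control kidneys (adjusted p = 0.112, limma).

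The remaining members tested in kidney had log2 differences of -0.36 to 0.15, and none passed. Of the helicase, Mcm2 averaged 170 ± 46.5 in PB kidneys and 155 ± 51.5 in control kidneys, Mcm4 averaged 98.5 ± 24.5 in PB kidneys and 91.3 ± 23.5 in control kidneys, Mcm5 averaged 62.3 ± 12.1 in PB kidneys and 66.1 ± 14.0 in control kidneys, and Mcm7 averaged 316 ± 21.6 in PB kidneys and 354 ± 40.9 in control kidneys. The loader Cdt1 averaged 91.3 ± 13.4 in PB kidneys and 107 ± 16.4 in control kidneys, and Rrm1 averaged 77.6 ± 14.4 in PB kidneys and 76.6 ± 12.7 in control kidneys. Of the cyclins, Ccnd2 averaged 134 ± 10.5 in PB kidneys and 122.5 ± 15.1 in control kidneys, Ccnd3 averaged 334 ± 24.6 in PB kidneys and 312 ± 38.0 in control kidneys, and Ccna2 averaged 51.6 ± 10.1 in PB kidneys and 59.7 ± 15.2 in control kidneys. Of their kinases, Cdk2 averaged 120.3 ± 12.6 in PB kidneys and 122 ± 17.1 in control kidneys, and Cdk4 averaged 233 ± 14.2 in PB kidneys and 238 ± 12.6 in control kidneys. Cdc20, of the anaphase, averaged 60.0 ± 17.4 in PB kidneys and 77.6 ± 23.4 in control kidneys.

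Without a filter, none of the 22 members under 50 in all groups was called in kidney (limma, lowest adjusted p = 0.0929), and at an unadjusted p under 0.05 none was higher and 6 were lower: Top2a, Cdk1, Mki67, Ccnb2, Aurka and Birc5. The share of all genes past that unadjusted p was not counted in kidney either. Top2a, the topoisomerase that untangles replicated chromosomes, averaged 25.1 in PB kidneys and 38.9 in control kidneys, a log2 difference of -0.65. The gene's other probe sets gave -0.15 and -0.21. Cdk1, the kinase of mitosis, averaged 21.2 in PB kidneys and 38.3 in control kidneys. Of the 23 members whose mean over the 20 kidneys was under 50, 19 had a lower log2 mean in PB kidneys (82.6%), against 53.6% of all 8296 genes that low. As in liver, signals this low are near background, and a difference between them is not a fold change in expression.

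**Figure D3:**
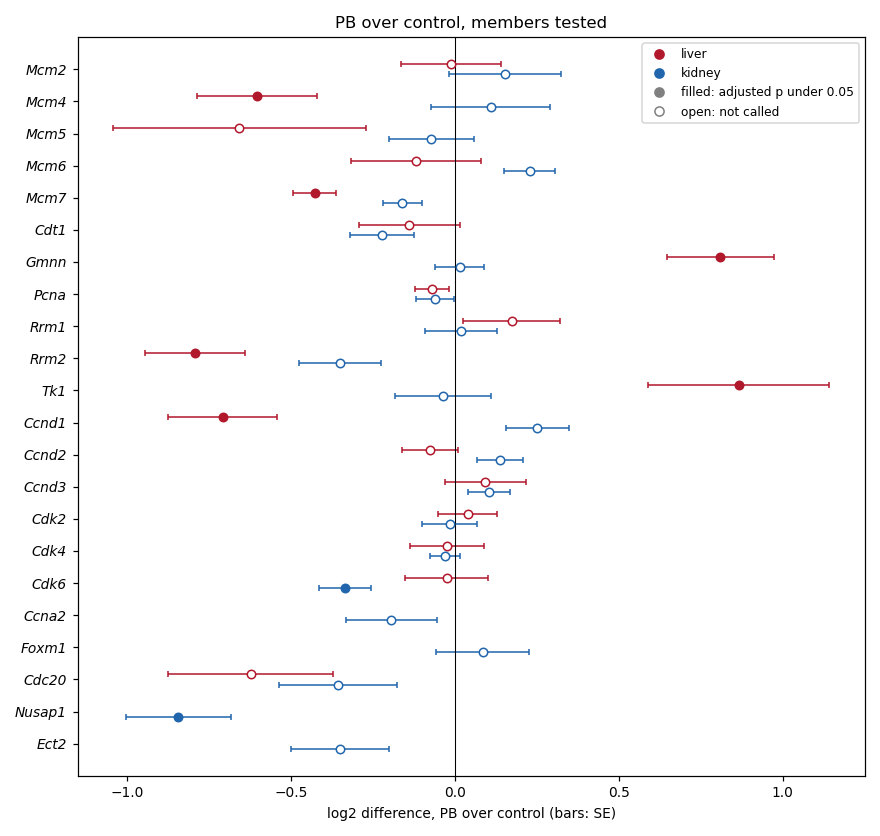
Log2 difference of PB over control with its SE (horizontal axis) for each member tested in liver or kidney; filled points passed an adjusted p under 0.05. The 6 called members in liver lie between -0.79 and 0.87, and the 2 called in kidney lie at -0.33 and -0.84.

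Whether PB acted differently in both organs was tested as an interaction over the 22 members with a mean of 50 in any group. The PB effect in liver was higher than in kidney for Gmnn (difference of log2 differences 0.80 ± 0.19, adjusted p = 0.00447, limma) and lower for Ccnd1 (-0.96 ± 0.20, adjusted p = 0.00134) and Mcm7 (-0.27 ± 0.09, adjusted p = 0.0488). Of all 11193 genes tested, 4.02% were called higher and 4.81% lower. With the animal as a block, since liver and kidney came from the same mice, Mcm7 was lost (adjusted p = 0.0617), as it was without a filter (adjusted p = 0.0762) and under quantile normalization (adjusted p = 0.158), and Tk1 (0.90, adjusted p = 0.0258) and Ect2 (1.33, adjusted p = 0.0457) were called. The liver means of Ect2 were both under 50 (36.7 in PB and 22.2 in control mice). Its liver part is therefore a difference between signals near background. For Rrm2 the difference between organs was not shown (-0.44 ± 0.21, adjusted p = 0.194), and neither was it for Mcm4 (-0.71 ± 0.27, adjusted p = 0.0925), Cdk6 (0.31 ± 0.16, adjusted p = 0.240) or Nusap1 (0.40 ± 0.53, adjusted p = 0.718).

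Liver and kidney were then compared within each treatment. The same mice gave both organs. In PB mice, 3 of the 21 members tested were higher in liver and 13 lower, against 36.3% and 46.7% of all 11029 genes tested. In control mice, 2 of 22 members were higher in liver and 13 lower, against 36.5% and 44.2% of all 10920 genes. The median log2 difference was -0.45 over the members and -0.12 over all genes in PB mice, and -0.41 and -0.08 in control mice. Ccna2, Foxm1 and Ect2 entered both tests only through their kidney mean. So did Mcm5 and Cdc20 in PB mice and Nusap1 in control mice. Without a filter, 8 of 44 members were higher in liver and 18 lower in PB mice. In control mice 8 were then higher and 15 lower. Over all 18193 genes without it, 6761 were higher and 5788 lower in PB mice, and 6427 and 5466 in control mice.

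Ccnd1 had the largest difference in PB mice. It averaged 176 ± 52.3 in liver and 1578 ± 224 in kidney of PB mice, a ratio of 8.97 (log2 difference -3.20 ± 0.13, adjusted p = 1.71e-16, limma), and 288 ± 85.2 in liver and 1334 ± 245 in kidney of control mice, a ratio of 4.64 (-2.24 ± 0.14, adjusted p = 1.23e-12). In both treatments every liver was below every kidney. Foxm1 averaged 25.9 in liver and 110 in kidney of PB mice, at least 2.21-fold higher in kidney (log2 difference -2.34 ± 0.32, adjusted p = 5.26e-07, limma), and 28.9 in liver and 105 in kidney of control mice, at least 2.09-fold higher in kidney (-1.97 ± 0.25, adjusted p = 1.81e-07). Ect2 averaged 36.7 in liver and 86.4 in kidney of PB mice, at least 1.73-fold higher in kidney (-1.29 ± 0.20, adjusted p = 3.77e-06, limma), and 22.2 in liver and 111 in kidney of control mice, at least 2.22-fold higher in kidney (-2.61 ± 0.38, adjusted p = 1.70e-06). For Foxm1 and Ect2 no liver value reached the lowest kidney value of the same treatment. The Foxm1 difference rests on 1 probe set (1448833_at). The gene's other probe sets averaged under 50 in every group, and in control mice they gave log2 differences of -0.42, 0.80 and 0.62.

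The helicase was uneven between the organs. Mcm6 averaged 82.6 ± 19.9 in liver and 224 ± 15.0 in kidney of PB mice (log2 difference -1.48 ± 0.12, adjusted p = 9.39e-11, limma), and 92.4 ± 31.5 in liver and 193 ± 30.3 in kidney of control mice (-1.13 ± 0.18, adjusted p = 4.01e-06). Mcm2 was also lower in liver, with log2 differences of -1.12 ± 0.16 in PB mice and -0.96 ± 0.17 in control mice. Mcm7 averaged 252 in liver and 316 in kidney of PB mice, with every liver below every kidney (-0.33 ± 0.06, adjusted p = 1.10e-05, limma), and 339 in liver and 354 in kidney of control mice (-0.06 ± 0.07, adjusted p = 0.407). Mcm4 had log2 differences of -0.84 ± 0.21 in PB mice (adjusted p = 9.72e-04) and -0.13 ± 0.15 in control mice (adjusted p = 0.425). Mcm5 did not pass in PB mice (-0.64 ± 0.37, adjusted p = 0.113) or in control mice (-0.06 ± 0.18, adjusted p = 0.775).

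Gmnn was lower in liver in control mice and was not called in PB mice, the same values that gave its interaction. It averaged 174 ± 29.2 in liver and 177 ± 22.5 in kidney of PB mice (log2 difference -0.03 ± 0.09, adjusted p = 0.740, limma), and 103 ± 34.2 in liver and 175 ± 18.7 in kidney of control mice (-0.83 ± 0.16, adjusted p = 4.84e-05). Tk1 was higher in liver, by 1.52 ± 0.13 on the log2 scale in PB mice (adjusted p = 3.07e-10), where every liver was above every kidney, and by 0.62 ± 0.29 in control mice (adjusted p = 0.0548, or 0.0167 with the animal as a block). Rrm2 was higher in liver too, by 0.40 ± 0.14 in PB mice (adjusted p = 0.0143, or 0.0835 with arrays centred on the median) and 0.84 ± 0.14 in control mice (adjusted p = 1.41e-05), where every liver was above every kidney. In PB mice its other probe sets were under 50 in both organs, with means of 49.7 in liver and 42.8 in kidney for one. The other had 21.7 in liver and 31.2 in kidney. In control mice these probe sets gave log2 differences of 0.64 and 0.07. Cdk2 was the third member higher in liver, by 0.37 ± 0.09 in PB mice and 0.32 ± 0.09 in control mice.

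Pcna averaged 652 ± 59.5 in liver and 721 ± 79.3 in kidney of PB mice (log2 difference -0.14 ± 0.06, adjusted p = 0.0475, limma), and 682 ± 31.4 in liver and 749 ± 53.4 in kidney of control mice (-0.13 ± 0.04, adjusted p = 0.00767). Ccnd2 had log2 differences of -0.06 ± 0.07 in PB mice (adjusted p = 0.457) and 0.15 ± 0.08 in control mice (adjusted p = 0.0988). Its call in PB mice depended on the scaling: it was higher in liver under quantile normalization (0.17, adjusted p = 0.0425) and lower with arrays centred on the median (-0.19, adjusted p = 0.0355). In control mice it was higher in liver under quantile normalization (0.35, adjusted p = 8.27e-04). Cdk6 had log2 differences of 0.15 ± 0.08 in PB mice and -0.16 ± 0.13 in control mice, neither called. In PB mice Cdk6 was called higher in liver under quantile normalization (0.34, adjusted p = 3.73e-04) and with the mean over its probe sets (0.41, adjusted p = 0.0163). Rrm1 was lower in liver in control mice (-0.40 ± 0.12, adjusted p = 0.00518) and not called in PB mice (-0.24 ± 0.14, adjusted p = 0.112), where it was called with arrays centred on the median (-0.37, adjusted p = 0.0180). Ccnd3, Cdk4 and Cdt1 were lower in liver in both treatments, with log2 differences of -0.34 to -0.46 in PB mice and -0.42 to -0.46 in control mice. Under quantile normalization Cdt1 was no longer called in either treatment, nor was Rrm1 in control mice or Pcna in PB mice. Cdk4 was not called in either treatment with a probe set that is not shared with related transcripts. Ccna2 averaged 27.7 in liver and 51.6 in kidney of PB mice, at least 1.03-fold higher in kidney (-1.02 ± 0.25, adjusted p = 7.46e-04, limma), and 36.3 in liver and 59.7 in kidney of control mice, at least 1.19-fold higher in kidney (-0.76 ± 0.20, adjusted p = 0.00142). Its other probe set averaged 34.6 in liver and 42.3 in kidney of PB mice. In control mice it averaged 45.25 in liver and 45.54 in kidney (log2 difference -0.03), so all 4 means were under 50. With signals floored at 50 the Ccna2 call in PB mice was lost (adjusted p = 0.0844). Cdc20 averaged 42.3 in liver and 60.0 in kidney of PB mice, at least 1.20-fold higher in kidney (-0.55 ± 0.22, adjusted p = 0.0255, limma), a call that was also lost with that floor (adjusted p = 0.0502). In control mice Cdc20 was not called (-0.28 ± 0.23, adjusted p = 0.260). With its probe set that is not shared with related transcripts it was called lower in liver there (-1.32, adjusted p = 0.00113, limma). That probe set averaged 32.9 in liver, under 50, and 66.8 in kidney of control mice. Nusap1 was tested in control mice alone, where its mean of 13.0 in liver and 52.1 in kidney gives a kidney level at least 1.04-fold higher (-2.51 ± 0.41, adjusted p = 7.36e-06, limma).

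In PB mice every liver was below every kidney in 29.6% of all genes tested and above in 21.0%, and among the members it was below for Ccnd1, Foxm1, Mcm6, Ect2, Ccnd3 and Mcm7 and above for Tk1. In control mice the shares over all genes were 27.9% below and 20.2% above, and the members were Ect2, Nusap1, Ccnd1 and Foxm1 below and Rrm2 above. Between treatments, Nusap1 in kidney was the only member to separate.

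**Figure D4:**
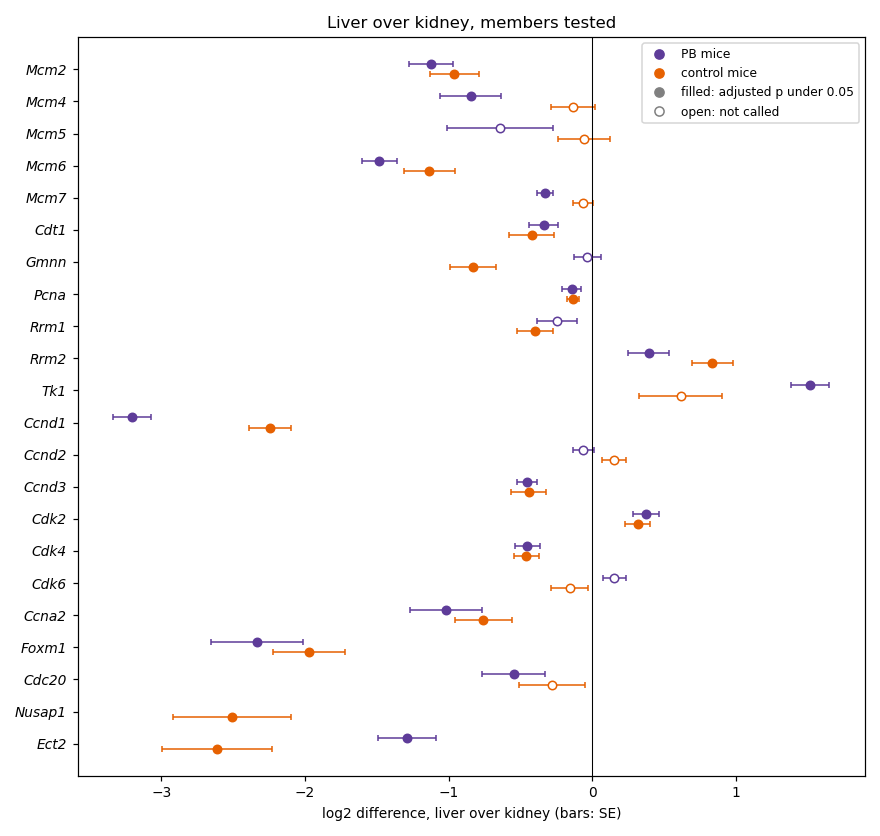
Log2 difference of liver over kidney with its SE (horizontal axis) for each member tested, in PB mice and in control mice; filled points passed an adjusted p under 0.05. Ccnd1 lies at -3.20 in PB mice and -2.24 in control mice, and Tk1, Rrm2 and Cdk2 are the called members to the right of 0.

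Animals differed in how many members were high at once. In PB liver, mouse 20 had the highest value of its group for 11 of 44 members and lay above the group mean for 34, on the log2 scale. In control liver, mouse 7 was highest for 11 and above the mean for 33, and its kidney lay above the mean of control kidneys for 34. In PB kidney, mouse 16 was highest for 13. Control mouse 2 had the lowest control liver value of Gmnn, Tk1, Ccnd2 and Ccnd3 and the highest of Rrm2, Ccnd1, Mcm6 and Cdk6.

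Other genes of the cell cycle were counted in 6 lists (124 of 126 genes with a probe set). Of 29 tested genes of origin firing and the replication fork, 1 was higher in PB livers and 4 were lower. The polymerase delta subunit Pold2 averaged 231 in PB livers and 189 in control livers (log2 difference 0.30 ± 0.08, adjusted p = 0.00908, limma). Gins1, a part of the active helicase, averaged 47.8 in PB livers and 70.1 in control livers, at least 1.40-fold higher in control (-0.55 ± 0.12, adjusted p = 0.00256, or 0.00720 without a filter). Pole2, a subunit of polymerase epsilon, averaged 38.4 in PB livers and 53.8 in control livers, at least 1.08-fold higher in control (-0.51 ± 0.15, adjusted p = 0.0183, or 0.0404 without a filter). Pold3 and Rfc5 were the others lower, and they are named here after their values were seen. Rfc5 was not called without a filter (adjusted p = 0.0820).

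Of 4 CDK inhibitors tested, Cdkn1a, a target of p53 that inhibits cyclin-dependent kinases, averaged 56.3 in PB livers and 304 in control livers (log2 difference -2.40 ± 0.35, adjusted p = 3.57e-05, limma). Cdkn2c, an inhibitor of Cdk4 and Cdk6, averaged 194 in PB livers and 145 in control livers (0.41 ± 0.13, adjusted p = 0.0311, or 0.0513 without a filter). Of 11 checkpoint kinases and CDK regulators, Cks1b, which binds cyclin-dependent kinases, was higher (0.43 ± 0.14, adjusted p = 0.0433, or 0.0649 without a filter) and cyclin F (Ccnf) lower (-0.73 ± 0.18, adjusted p = 0.00800). Of 9 kinetochore genes, Spc24 was higher (0.58 ± 0.15, adjusted p = 0.0123) and its partner Spc25 lower (-0.54 ± 0.17, adjusted p = 0.0320). Spc25 averaged 45 in PB livers and 66.2 in control livers, at least 1.33-fold higher in control, and without a filter it was not called (adjusted p = 0.0614), whereas Spc24 was (adjusted p = 0.0208). Of 13 subunits and regulators of the anaphase-promoting complex, Anapc7 was lower (-0.34 ± 0.09, adjusted p = 0.0153). None of 13 genes of the RB, E2F and DREAM group was called in liver (limma), 2 were higher at an unadjusted p under 0.05, and without a filter 1 of the 19 was called higher. In kidney, 1 gene of these 6 lists was called, Ccnh, a subunit of the CDK-activating kinase, which was lower in PB kidneys (-0.18 ± 0.04, adjusted p = 0.0121).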

How the data were processed

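The authors deposited intensity values for 45037 probe sets on 40 arrays: linear MAS5 signals with each array scaled to a trimmed mean of 150. The submitters' processing notes list GCOS and MAS5, with no version. Array medians were 30.0 to 37.2, and detection calls and scanner files were not analysed here. The number of animals limits the precision. In the platform annotation, 34945 probe sets carry 1 symbol, 932 carry several and 9160 carry none, and symbols were updated by Entrez number through RefSeq for 34741. A gene's level was that of its probe set of highest mean across the 40 arrays, and 13 members have a single probe set.

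A floor of 1 was applied before log2. Genes whose mean was at least 50 in either group compared (in any group for the interaction) were tested with limma 3.58.1 in R 4.3.3 (lmFit, eBayes with a trend, two-sided), and p-values were adjusted by Benjamini-Hochberg over all genes tested. A ratio to a mean under 50 is a bound, the higher mean divided by 50. Means carry the SD and log2 differences the SE. Tables and plots were made with Python 3.11.15, NumPy 2.4.6, pandas 2.3.3, and matplotlib 3.10.9. The fits were tested on simulated data with known changes.

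All 45 members are named, with values where a group mean reached 50, and with full statistics for those called in a PB comparison or with the 5 largest or 5 smallest differences between organs. Of the other lists, up to 3 genes called in liver with the smallest adjusted p are named (all 5 for the replication fork, Pold3 and Rfc5 after their values were seen), and markers are given by counts and summed signal. Members and lists were chosen with earlier results of these data known.

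The donor number pairs both organs of a mouse. Deviations from the group means over 8398 genes had a median correlation of 0.10 between organs of 1 mouse (-0.09 to 0.24) and of -0.01 between organs of different mice, and for 11 of 20 livers the best match was the kidney of that mouse. Since the organs came from the same mice, organ comparisons were repeated with the animal as a block.

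Alternatives were a filter at 100, none or one blind to the groups, floors of 16 and 50, quantile normalization, centring on the median, the mean over probe sets, no shared probe sets, the t-test of the methods on log2 and linear signal, all arrays in 1 fit, the array number as a covariate, each array left out in turn, and the study's thresholds (a ratio of 1.5 and a p of 0.001).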

Additional observations from a re-analysis of the deposited data

Results flagged for a closer look

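In 77 member and group combinations with a mean of at least 50, 10 held an animal far from the other 9 of its group by Dixon's ratio. Chance alone flags about 1 in 20 groups, and the combinations share animals. In PB livers these were Cdt1 at 94.7 in mouse 18, Ccnd1 at 290 in mouse 12 and Cdk6 at 326 in mouse 12, all highest of their group. In control livers they were Mcm5 at 118 and Cdk2 at 198 in mouse 7, and Rrm2 at 296 and Cdk6 at 486 in mouse 2, again the highest. In PB kidneys Mcm5 at 93.6 in mouse 16 was the highest and Cdk2 at 86.7 in mouse 14 the lowest. In control kidneys Cdk6 at 346 in mouse 2 was the highest, so that this animal stood out for Cdk6 in both organs.

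The PB effect differed between liver and kidney by the interaction test for 3 members in the fit without the animal as a block. The difference of log2 differences was 0.80 for Gmnn, -0.96 for Ccnd1 and -0.27 for Mcm7. With the animal as a block Mcm7 was not called (adjusted p = 0.0617).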

How the results depend on the processing

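Members called in liver (6 in the analysis as reported) numbered 5 or 6 with each liver left out in turn and 3 by the study's thresholds. Members called in kidney (2 as reported) numbered 2 to 3 with each kidney left out. They numbered 1 with a filter at 100, with a filter blind to the groups, with a floor of 50 and by the study's thresholds, and 0 with the mean over probe sets and with all 40 arrays in 1 fit. Between organs, members called in control mice (15 as reported) numbered 23 without a filter and 8 with the mean over probe sets, and members called in PB mice (16 as reported) numbered 10 with a filter at 100 and 26 without one. For the interaction (3 as reported) 5 were called with a floor of 16. With the replicate block by animal the counts were 16 in control mice, 16 in PB mice and 4 for the interaction. Among results called in the reported fit or in the alternative, the direction turned for Ccnd2 between organs in PB mice under quantile normalization (0.17) and for Cdk4 there without shared probe sets (0.0858). The cause of these changes was not tested, except that stricter filters test fewer genes. Of 2031 alternative values of 105 single results, 1973 kept their side of the threshold and, where called, their direction. Another 34 fell short of the threshold and 22 newly passed it. Among the 1973, differences called in neither fit could change sign, as for Ccnd3 in liver without control mouse 2 (-0.0012). Over all genes, centring on the median gave 518 higher and 1008 lower in liver (688 and 863 as reported), 265 and 95 in kidney (257 and 191), and 272 and 689 for the interaction (450 and 538), and moved the median of all genes between organs in PB mice to -0.24, against -0.12 as reported. The signals carry no detection calls, and levels under 50 are near background.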
